A study of Mus musculus with 9 samples.

Results

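The BMP, GDF, activin and follistatin-like genes examined were Bmp2, Bmp4, Bmp6, Bmp7, Bmp10, Gdf15, Mstn, Inhba, Fstl1 and Fstl3, taken as every probe set to which the platform annotation gives exactly 1 of these symbols. Of these 10 genes 8 were found, with 12 of the 45037 probe sets that are not controls, and Gdf15 and Mstn were not analysed here. The 8 genes are among 18193 with a probe set of a single symbol. The samples were left ventricles of male C57BL/6 mice taken 6 weeks after transaortic constriction (TAC, n = 4 arrays), surgery that narrows the aorta and makes the ventricle pump against raised pressure, or after a sham operation (n = 5 arrays). The labels name the strain and no transgene or drug, and no age of the mice is stated in the sources used here. The series title concerns the kinase HIPK2 in cardiomyocytes, whereas these arrays compare TAC with sham hearts.

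Bone morphogenetic proteins (BMPs), growth differentiation factors (GDFs) and activins are secreted dimers of the TGF-beta superfamily. They bind pairs of type I and type II receptor kinases, which phosphorylate SMAD transcription factors, SMAD1, SMAD5 and SMAD9 downstream of most BMPs and SMAD2 and SMAD3 downstream of activins. Follistatin and its relatives are secreted proteins, and follistatin and FSTL3 bind activins and keep them from their receptors. In the heart this family is known for its roles in chamber and valve formation, in muscle growth and in fibrosis.

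Expression was read as log2 values after robust multi-array averaging (RMA), in which every array had the same median of 6.5661, so a general rise or fall of RNA cannot be seen. Each difference is the TAC mean minus the sham mean in log2 units, SE stands for its standard error in the fit by limma, and a gene was called at a Benjamini-Hochberg adjusted p below 0.05. Pairs of TAC arrays had Pearson correlations over genes of 0.995 to 0.997, pairs of sham arrays 0.987 to 0.997 and mixed pairs 0.974 to 0.988, and the sham array with the lowest median correlation to its group was replicate 2. The known pressure overload genes Nppa, Nppb, Myh7 and Acta1 all rose in TAC, by 1.30 to 3.03, with no overlap between groups. The 7 cardiomyocyte markers averaged 14.00 to 14.01 per array in TAC and 14.06 to 14.10 in sham. Of these 7 markers 0 were called higher and 1 lower, where 12.8% of all genes were called higher and 12.3% lower. The lower one was Tnni3 (-0.16, limma adjusted p = 0.0475), without overlap, and only 1 of the 7 differences was above 0. These markers lie near the top of the range of values, where a change could be hidden. The number of arrays limits the precision, and as no label says that every array is a separate animal, p-values measure only the spread among these samples. In tissue RNA, more cells of a type and more RNA per cell cannot be told apart.

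The 4 genes that were called higher in TAC are shown by the 250 bases before their annotated start, from RefSeq on GRCm38.p6. Each sequence is given 5′ to 3′ in the gene's direction. Whether these genes share any regulation was not tested. Capitals mark the GC box GGGCGG and the TATA box TATAAA on either strand, both motifs chosen after the sequences were seen.
Fstl1 (chr16:37776805-37777054, plus strand): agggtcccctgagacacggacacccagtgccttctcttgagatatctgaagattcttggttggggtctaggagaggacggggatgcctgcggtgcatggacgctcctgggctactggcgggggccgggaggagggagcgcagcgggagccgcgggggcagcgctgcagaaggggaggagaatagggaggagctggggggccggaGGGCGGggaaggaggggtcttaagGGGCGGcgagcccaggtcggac
Fstl3 (chr10:79777024-79777273, plus strand): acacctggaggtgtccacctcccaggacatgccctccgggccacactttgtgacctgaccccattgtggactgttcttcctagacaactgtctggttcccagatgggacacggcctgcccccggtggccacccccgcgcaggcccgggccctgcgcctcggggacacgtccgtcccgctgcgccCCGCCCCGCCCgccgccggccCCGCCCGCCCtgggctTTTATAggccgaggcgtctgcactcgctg
Bmp4 (chr14:46390670-46390919, minus strand): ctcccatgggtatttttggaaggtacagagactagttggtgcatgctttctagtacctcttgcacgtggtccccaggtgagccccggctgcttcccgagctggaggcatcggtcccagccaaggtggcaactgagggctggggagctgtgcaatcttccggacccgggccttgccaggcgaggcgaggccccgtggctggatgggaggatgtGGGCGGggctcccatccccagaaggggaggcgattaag
Inhba (chr13:16011601-16011850, plus strand): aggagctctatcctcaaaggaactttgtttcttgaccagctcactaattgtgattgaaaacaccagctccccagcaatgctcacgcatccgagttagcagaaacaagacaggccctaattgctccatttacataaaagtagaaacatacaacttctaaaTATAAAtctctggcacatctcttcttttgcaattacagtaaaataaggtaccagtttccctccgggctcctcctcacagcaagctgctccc

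The GC box was found 4 times before Fstl3, with overlaps, 2 times before Fstl1, once before Bmp4 and not before Inhba. Of the genes not called, Bmp6 had it once and Bmp10 did not have it, and 32.7% of all 32851 promoters in the table hold at least 1. The TATA box was found once before Fstl3, on the opposite strand, and once before Inhba, but not before Bmp6 or Bmp10, and 12.4% of promoters hold it. The AP-1 motif TGANTCA, the C/EBP-ATF motif TGATGCA and the BMP-SMAD motif GGCGCC are not in these 4 windows on either strand, nor in those of Bmp6 and Bmp10, while 6.7%, 2.7% and 9.6% of all promoters hold them. Bmp2 and Bmp7 were not matched in the table. A match is a run of letters and not a shown binding site.

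Both follistatin-like genes rose, together with the ligand genes Bmp4 and Inhba, while Bmp7 fell and Bmp2, Bmp6 and Bmp10 did not pass the threshold. Thus 4 of the 8 genes were higher, where 12.8% of all genes tested were called higher, and 1 of 8 was lower, where 12.3% of all genes were called lower and 25.1% were called in either direction. The genes were chosen with earlier results of these data known, so these shares describe the list and are no test of it. The TAC and sham arrays did not overlap for 4 of the 8 genes, all with TAC above, where 13% of all genes had TAC above, 12.2% had TAC below and 25.2% had either. The median difference of the 8 genes was 0.24, against 0.00 over all genes tested, and the single differences ran from -0.64 to 1.70. Among the 12 probe sets 5 were higher, against 8.87% of all probe sets, and 1 was lower, against 8.86%, with 17.7% of all probe sets called in either direction. The same 5 probe sets had no overlap, all with TAC above, and over all probe sets 10.2% had TAC above, 9.67% had TAC below and 19.8% had either. The plot of values by array shows each probe set.

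**Figure D1:**
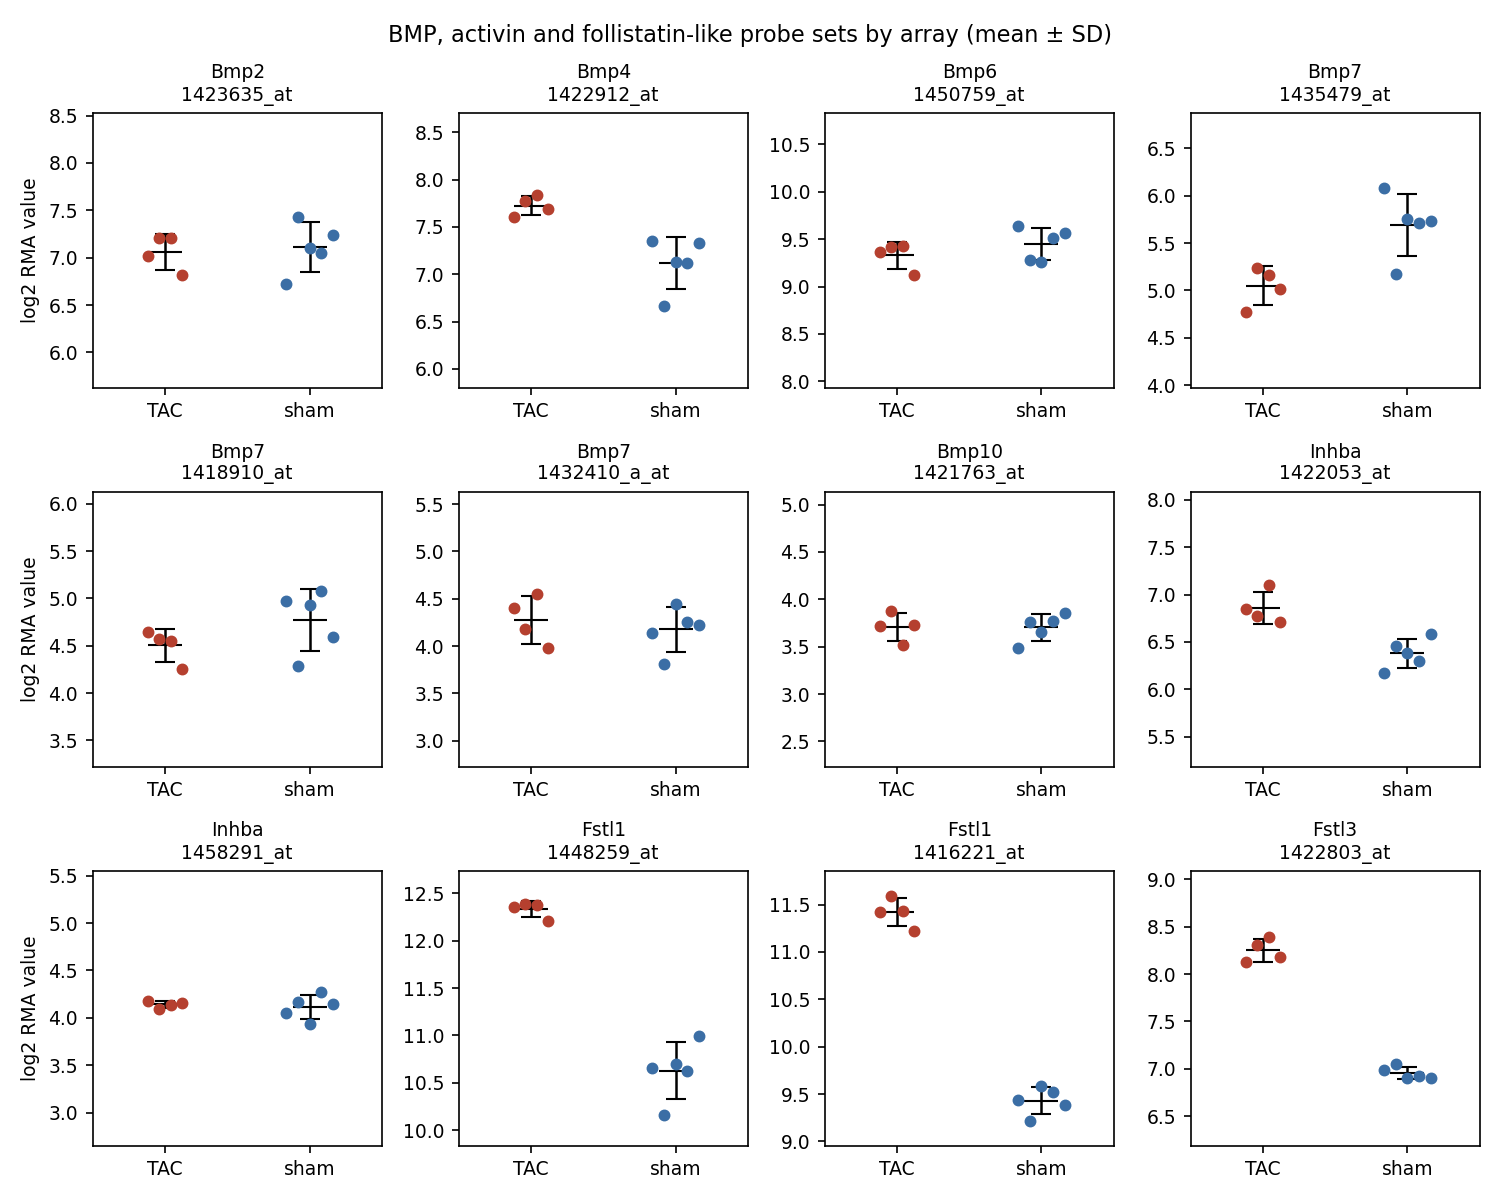
Log2 RMA value of each array for the 12 probe sets of the 8 genes, with TAC in red (4 arrays) left of sham in blue (5 arrays). Black marks give the mean and SD, and every panel spans the same number of log2 units. Both Fstl1 probe sets and the probe set of Fstl3 stand well above sham in all 4 TAC arrays.

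Fstl1, which encodes a secreted glycoprotein with a follistatin-like domain that heart cells release, changed most. At its brightest probe set the TAC arrays had log2 values of 12.35, 12.39, 12.38 and 12.21, against 10.66, 10.16, 10.70, 10.63 and 10.995 in the sham arrays. The groups lay far apart, and sham replicate 2 was the lowest of all arrays. The mean was 12.33 ± 0.08 in TAC (SD, n = 4) and 10.63 ± 0.30 in sham (SD, n = 5), a difference of 1.70 (SE 0.14, limma adjusted p = 1.99e-05), or 3.26-fold. The other probe set of Fstl1 had 11.43, 11.59, 11.44 and 11.22 in TAC, against 9.44, 9.22, 9.58, 9.52 and 9.39 in sham. It rose by 1.99 (SE 0.10, limma adjusted p over all probe sets = 1.60e-06), or 3.97-fold, so that both probe sets gave the same direction and call. Leaving out any 1 array kept the first difference between 1.59, without sham replicate 2, and 1.80.

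Fstl3 encodes a follistatin-like inhibitor that binds activins and myostatin. Its log2 values were 8.12, 8.31, 8.39 and 8.18 in the TAC arrays, against 6.98, 7.05, 6.90, 6.93 and 6.90 in the sham arrays. The sham values lay within a narrow band, with replicate 2 at its top, and every TAC value was more than 1 log2 unit above that band. Fstl3 averaged 8.25 ± 0.12 in TAC (SD, n = 4) and 6.95 ± 0.06 in sham (SD, n = 5), and rose by 1.30 (SE 0.07, limma adjusted p = 2.47e-06), or 2.46-fold. Without 1 array the difference was 1.25 to 1.34.

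Inhba encodes the beta-A subunit of activin A, a ligand that FSTL3 binds. The TAC arrays had log2 values of 6.85, 6.78, 7.10 and 6.71, against 6.17, 6.46, 6.39, 6.30 and 6.58 in sham. The groups did not overlap, although the lowest TAC array and the highest sham array were close. Inhba averaged 6.86 ± 0.17 in TAC (SD, n = 4) and 6.38 ± 0.16 in sham (SD, n = 5) and rose by 0.48 (SE 0.10, limma adjusted p = 0.00677), or 1.39-fold, and would miss a further threshold of 1.5-fold. Its other probe set had values of 4.09 to 4.18 in TAC and 3.93 to 4.27 in sham, below the array median throughout. That probe set differed by 0.03 (SE 0.08, limma adjusted p over all probe sets = 0.852), and the mean of both probe sets rose by 0.255 (limma adjusted p = 0.0267).

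Bmp4, a ligand known for its role in mesoderm and heart development, rose. It had log2 values of 7.60, 7.77, 7.84 and 7.69 in TAC, against 7.35, 6.66, 7.13, 7.12 and 7.33 in sham. Each TAC array was above each sham array, and sham replicate 2 was the lowest. The mean was 7.73 ± 0.10 in TAC (SD, n = 4) and 7.12 ± 0.28 in sham (SD, n = 5), a difference of 0.61 (SE 0.13, limma adjusted p = 0.00714), or 1.52-fold. Without sham replicate 2 the difference was 0.49, the smallest on leaving out 1 array.

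Bmp7, a ligand known from kidney development and as an opponent of TGF-beta in fibrosis models, fell at 1 of its 3 probe sets. That probe set had 4.77, 5.24, 5.17 and 5.02 in TAC, against 6.08, 5.17, 5.76, 5.72 and 5.73 in sham. Sham replicate 2 lay among the TAC values, while the other 4 sham arrays lay above all of them. Bmp7 averaged 5.05 ± 0.21 in TAC (SD, n = 4) and 5.69 ± 0.33 in sham (SD, n = 5) and fell by 0.64 (SE 0.16, limma adjusted p = 0.0160), or 1.56-fold lower in TAC. The call ended without TAC replicate 1, at -0.55 (adjusted p = 0.0516), while without sham replicate 2 the difference was -0.77 (adjusted p = 0.00110). The other probe sets of Bmp7 were not called, at -0.26 (SE 0.16) and 0.10 (SE 0.14), with limma adjusted p of 0.302 and 0.704 over all probe sets. With the 3 probe sets averaged, the difference of -0.27 was not called (limma adjusted p = 0.173), and all values of the 3 lay below the array median.

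Bmp2, Bmp6 and Bmp10 did not pass. Bmp2, a ligand close to BMP4 in sequence, had 7.02, 7.21, 7.20 and 6.81 in TAC, against 6.72, 7.43, 7.11, 7.05 and 7.24 in sham. All its TAC values lay within the sham range, and the 95% confidence interval around its difference of -0.05 ran from -0.36 to 0.26. Bmp6, known as the endothelial ligand that sets hepcidin in the liver, had 9.36, 9.41, 9.43 and 9.12 in TAC, against 9.64, 9.28, 9.26, 9.51 and 9.56 in sham. Its groups overlapped, and the interval around its difference of -0.12 ran from -0.35 to 0.11. Bmp10, known as a ligand made by atrial cardiomyocytes, had 3.71, 3.88, 3.52 and 3.73 in TAC, against 3.49, 3.76, 3.65, 3.77 and 3.86 in sham. Its difference was 0.00, with an interval of -0.21 to 0.21, at values far below the array median, where a change could be hidden. Of 7 atrial cardiomyocyte markers 2 were higher and 3 lower in TAC, where 12.8% of all genes were called higher and 12.3% lower. The mean level of these 7 markers per array was 7.25 to 7.62 in TAC and 7.13 to 7.44 in sham.

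**Figure D2:**
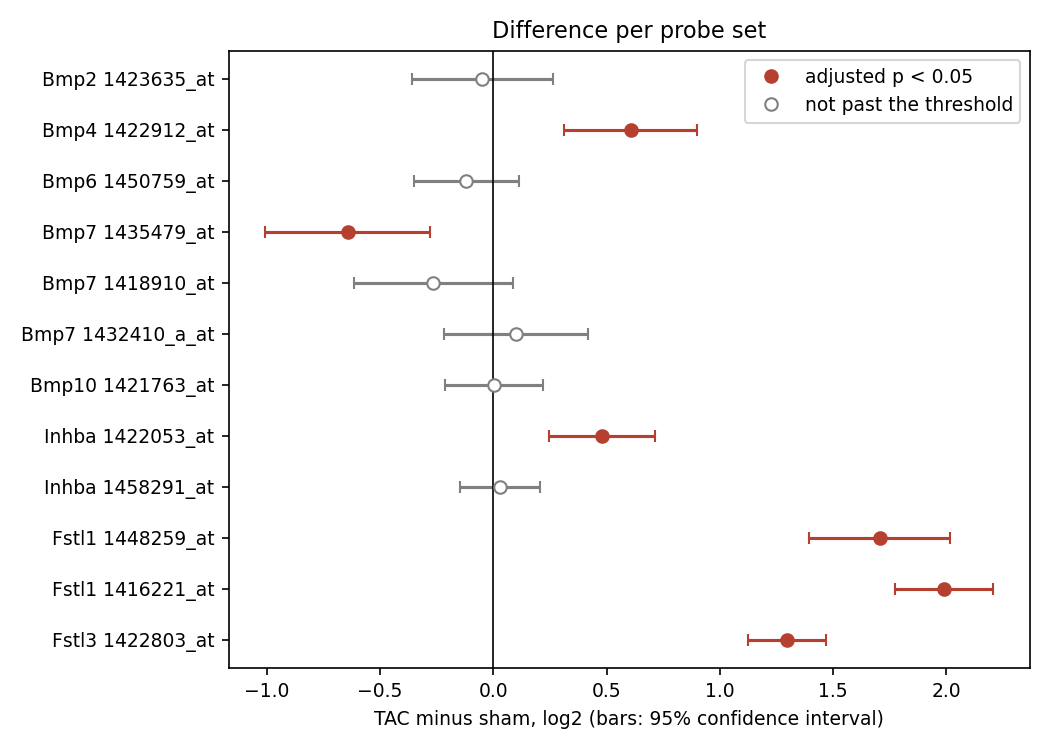
Difference between TAC and sham on the log2 scale for each probe set, with its 95% confidence interval from the fit over all probe sets. Filled red points passed an adjusted p below 0.05. The Fstl1 probe sets, at 1.70 and 1.99, and the Fstl3 probe set, at 1.30, lie furthest to the right, and the only called decrease is 1 of the 3 Bmp7 probe sets, at -0.64.

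By array profile, the genes most like Fstl3 over all 9 arrays were Fhl1 (Pearson r = 0.993), Tgfb2 (0.992) and Chodl (0.992), and those most like Fstl1 were Pamr1 (0.999), Col8a1 (0.999) and Itih5 (0.998). The arrays fall into 2 groups and all 6 genes rose in TAC, by 0.93 to 3.60, so the likeness describes mainly a shared group difference and carries no test.

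Markers of fibroblasts and macrophages were also higher in TAC, where 12.8% of all genes were called higher and 12.3% lower. Among the sham arrays replicate 2 was lowest for Fstl1, for Bmp4 and for the mean of the activated fibroblast markers. That array was also lowest for the means of the general fibroblast, macrophage, endothelial and pressure overload markers. For Fstl3 it was the highest sham array (7.05), and for Inhba it had 6.46, within a sham range of 6.17 to 6.58. All 6 activated fibroblast markers (Postn, Cilp, Comp, Thbs4, Ltbp2 and Meox1) rose, and their mean level per array was 11.64 to 12.08 in TAC and 7.05 to 9.12 in sham. Of 6 general fibroblast markers 4 rose, with mean levels of 11.22 to 11.57 in TAC and 10.78 to 10.95 in sham. Macrophage markers rose for 5 of 6, with mean levels of 9.90 to 10.10 in TAC and 8.90 to 9.44 in sham. Endothelial markers were called for 1 of 6, which was lower, with mean levels of 10.14 to 10.35 in TAC and 10.12 to 10.51 in sham. Of 6 smooth muscle and pericyte markers 1 rose and 2 fell (9.80 to 10.03 in TAC and 9.81 to 10.11 in sham). None of the 4 adipocyte markers (4.14 to 4.22 in TAC and 4.15 to 4.40 in sham) or the 5 mesothelial markers (5.57 to 6.66 in TAC and 5.49 to 6.27 in sham) was called by limma, and at an unadjusted p below 0.05 1 adipocyte and 0 mesothelial markers passed. The part of these cell types in the changes of Fstl1, Fstl3, Bmp4 and Inhba was not tested.

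**Figure D3:**
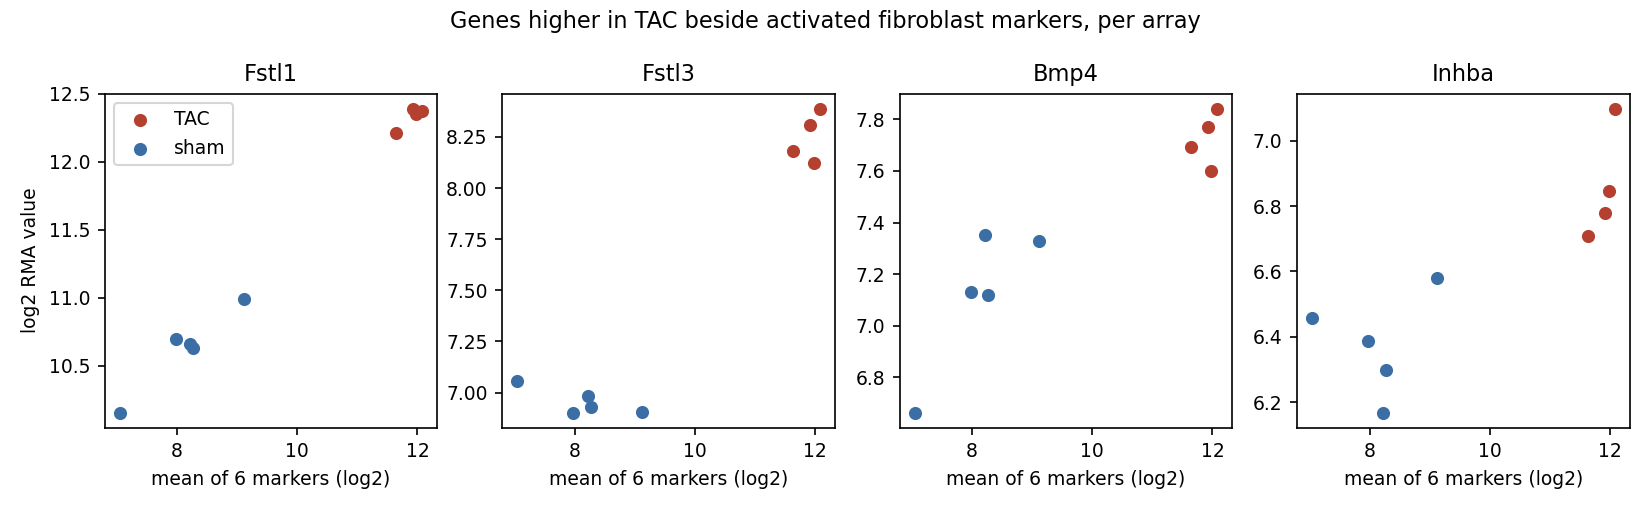
Log2 value of Fstl1, Fstl3, Bmp4 and Inhba in each array against the mean log2 level of the 6 activated fibroblast markers in the same array, with 4 TAC arrays in red and 5 sham arrays in blue. The marker mean is 11.64 to 12.08 in TAC and 7.05 to 9.12 in sham, and within sham Fstl3 stays between 6.90 and 7.05 across that range.

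Among the genes around these ligands, 95 were measured in 8 lists of pathway genes, of which 16 rose and 10 fell. These lists too were chosen with earlier results of these data known, so their counts beside all genes are no test. Over all genes 12.8% were called higher and 12.3% lower. The median difference of the 95 genes was 0.05, against 0.00 over all genes. Without TAC replicate 3, 10 of the 95 rose, where 1770 of all 18193 genes were called higher without that array. Of 18 other ligand genes 1 rose and 2 fell, with a median of -0.01. Inhbb, which encodes the beta-B subunit of activins, had 8.33, 8.43, 8.96 and 7.25 in TAC, against 7.34, 7.15, 7.24, 7.12 and 7.16 in sham. TAC replicate 4 lay within the sham range and the other 3 TAC arrays well above it. Inhbb rose by 1.04 (SE 0.27, limma adjusted p = 0.0164), while a dimmer probe set of it differed by 0.06 and did not pass. Gdf10, also known as BMP3b, fell by 0.79 (SE 0.17, limma adjusted p = 0.00622) without overlap, with 5.33, 5.51, 5.29 and 5.59 in TAC, against 6.48, 5.63, 6.14, 6.50 and 6.36 in sham. Inha, the inhibin alpha subunit gene, fell by 0.45, but removal of any of 7 single arrays ended the call (limma adjusted p = 0.124 without TAC replicate 3).

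Of 10 receptor genes measured 1 rose and 1 fell, where 25.1% of all genes were called in either direction, with a median of -0.05 and differences from -0.38 to 0.35. The type I receptor gene Bmpr1a rose by 0.35, but removal of any of 6 single arrays ended the call (limma adjusted p = 0.102 without TAC replicate 3). The mean of its 6 probe sets differed by 0.11 (limma adjusted p = 0.279), and median centring also ended the call (0.30, limma adjusted p = 0.0964). The activin type II receptor gene Acvr2a fell by 0.21, but removal of any of 8 single arrays ended the call (limma adjusted p = 0.131 without TAC replicate 2). Its dimmer probe set differed by 0.37 in the other direction and was not called (limma adjusted p over all probe sets = 0.191), and the mean of both was 0.083 (limma adjusted p = 0.541). Of 7 co-receptor and decoy genes 1 rose and 2 fell, with a median of -0.22. Bambi, whose product is a pseudoreceptor without a kinase domain, rose by 0.88 (SE 0.14, limma adjusted p = 0.00138). It had 10.11, 9.87, 9.93 and 10.32 in TAC, against 9.14, 8.85, 9.08, 9.20 and 9.59 in sham. Hjv, the gene of the BMP co-receptor hemojuvelin, fell by 0.44 (SE 0.07, limma adjusted p = 0.000979), and its other probe set fell by 0.52. Ret, the receptor kinase through which the GDF15 receptor GFRAL signals, fell by 1.14 (SE 0.14, limma adjusted p = 0.000292). Ret had 7.77, 7.25, 7.29 and 7.14 in TAC, against 8.56, 8.16, 8.59, 8.46 and 8.74 in sham, with no overlap. A dimmer probe set of Ret differed by -0.38 and was not called (limma adjusted p over all probe sets = 0.122). Gdf15 was not analysed, and Gfral was not among the 10 receptor genes measured.

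Of 17 measured genes for extracellular inhibitors 1 rose and 2 fell, with a median of -0.08. Over all genes 12.8% were called higher and 12.3% lower. Nbl1, which encodes the BMP antagonist DAN, had 8.44, 8.70, 8.50 and 8.34 in TAC, against 7.35, 6.97, 7.27, 7.31 and 7.46 in sham. It rose by 1.22 (SE 0.11, limma adjusted p = 2.89e-05), and every TAC array lay above every sham array. Bmper, which encodes a secreted BMP-binding regulator of endothelial cells, had 7.61, 7.41, 7.33 and 7.22 in TAC, against 8.33, 8.73, 8.58, 8.40 and 8.29 in sham. It fell by 1.07 (SE 0.11, limma adjusted p = 7.57e-05), also without overlap. Dand5, of the same DAN family as Nbl1, fell by 0.36, but removal of TAC replicate 2 or 3 or sham replicate 4 or 5 ended the call (limma adjusted p = 0.0719 without TAC replicate 3). Follistatin itself, Fst, differed by -0.47 (SE 0.25, limma adjusted p = 0.213), a gene added for its kinship to Fstl3 after its value was seen. Of 7 genes for proprotein processing none rose and 1 fell. In limma 1 of the 7 was higher and 2 were lower at an unadjusted p below 0.05. The decrease was in the convertase gene Pcsk6 (-0.21, SE 0.06, limma adjusted p = 0.0174).

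Of 13 genes for SMADs and their regulators 6 rose and 0 fell, where 12.8% of all genes were called higher and 12.3% lower. Their median was 0.23 and 12 of the 13 differences were above 0, as were 8953 of 18193 over all genes. In limma 0 of the 13 were lower at an unadjusted p below 0.05 also. Tgif1, a SMAD corepressor gene, had 7.57, 7.51, 7.91 and 7.25 in TAC, against 6.54, 5.74, 6.50, 6.70 and 6.50 in sham, and rose by 1.16 (SE 0.19, limma adjusted p = 0.00151), or 0.999 without sham replicate 2. The corepressor genes Skil and Ski rose by 0.53 (SE 0.09) and 0.23 (SE 0.06). With each array centred on its median, Ski (0.18, limma adjusted p = 0.0650), Smad1 (0.25, 0.0852) and Smurf1 (0.20, 0.0610) lost their calls, so 3 of the 6 increases ended under that scaling. The ubiquitin ligase gene Smurf2 rose by 0.31, but removal of any of 5 single arrays ended the call (limma adjusted p = 0.0971 without TAC replicate 3). Smad1 and Smurf1, named after their values were seen, completed the count. Smad1, a transducer of BMP signals, rose by 0.30, and removal of any of 6 single arrays ended the call (limma adjusted p = 0.102 without TAC replicate 3), while its other probe sets rose by 0.61 and 0.51 (limma adjusted p over all probe sets = 0.00445 and 0.0211). Smurf1 rose by 0.25, but removal of any of 7 single arrays ended the call (limma adjusted p = 0.112 without TAC replicate 1). Smad6, an inhibitory SMAD gene that BMPs induce, differed by 0.03 (SE 0.17) and Smad7 by 0.30 (SE 0.12), and neither passed (limma adjusted p = 0.917 and 0.0995), both added after their values were seen.

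**Figure D4:**
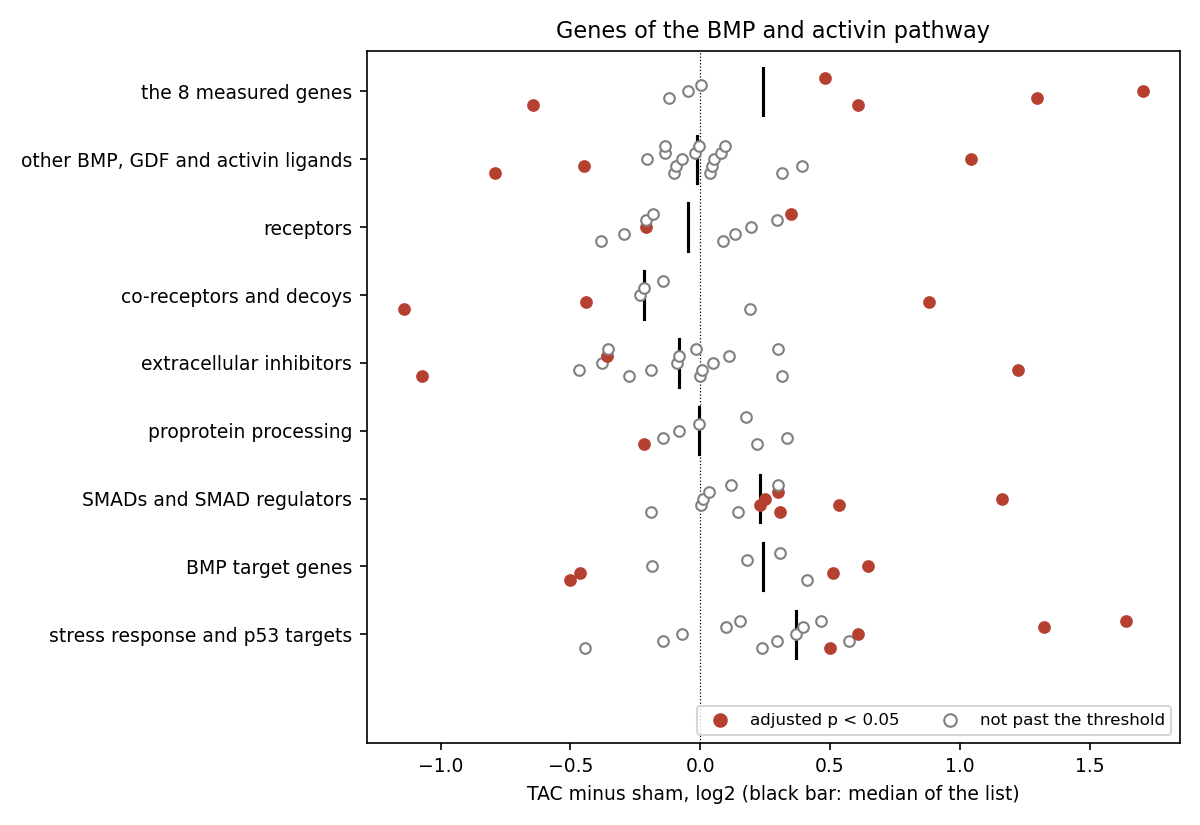
Difference between TAC and sham on the log2 scale for each measured gene of the 8 genes examined and of 8 lists of pathway genes, 1 point per gene, with filled red points past an adjusted p below 0.05. Black bars give the list medians, from -0.22 in co-receptors and decoys to 0.37 in the stress response list, and vertical jitter within a list carries no value.

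Of 8 BMP target genes measured 2 rose and 2 fell, with a median of 0.24. Over all genes 12.8% were called higher, 12.3% lower and 25.1% in either direction. Id1, a helix-loop-helix inhibitor gene that BMPs induce directly in many cells, had 9.42, 9.44, 9.12 and 9.47 in TAC, against 9.997, 9.97, 9.48, 9.86 and 10.01 in sham. It fell by 0.50 (SE 0.12, limma adjusted p = 0.0125), with all TAC values below the sham range, sham replicate 3 being close to it. Hey1, a transcriptional repressor gene that Notch and endothelial BMP signals induce, fell by 0.46 (SE 0.11, limma adjusted p = 0.0130). Id4 and Atoh8, both helix-loop-helix genes, rose by 0.51 (SE 0.12) and 0.65 (SE 0.15), with limma adjusted p of 0.0108 and 0.00926. The other probe sets of Id4 differed by 0.49 and 0.06 and were not called (limma adjusted p over all probe sets = 0.0766 and 0.701). The stress response and p53 target list covers pathways known to induce Gdf15, which itself was not analysed. It had 4 of 15 genes higher and 0 lower, against 12.8% and 12.3% over all genes, with a median of 0.37. In limma 0 of these 15 genes were lower at an unadjusted p below 0.05 also. The serine and folate pathway gene Mthfd2 rose by 1.32 (SE 0.21) and the transcription factor gene Atf4 by 0.61 (SE 0.12), each with a further probe set that rose. The dimmest probe set of Atf4 differed by 0.06 and was not called (limma adjusted p over all probe sets = 0.781). Atf3 rose by 1.64 (SE 0.43), a call lost without TAC replicate 1 (limma adjusted p = 0.0566) or TAC replicate 3 (0.0511). Cdkn1a rose by 0.50 with overlap, but removal of any of 6 single arrays ended the call (limma adjusted p = 0.0909 without TAC replicate 3). Median centring ended the call of Cdkn1a as well (0.45, limma adjusted p = 0.0628), as did averaging its probe sets (0.39, limma adjusted p = 0.0730). Its dimmer probe set differed by 0.28 and was not called (limma adjusted p over all probe sets = 0.288). The 16 genes named from these lists that have further probe sets hold 24 of them, of which 21 had the sign of the brightest, 5 were called in that direction and 0 in the opposite one.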

How the data were processed

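Left ventricular RNA was amplified, labelled with biotin and hybridized to Affymetrix mouse arrays, per the labels' protocols. The authors deposited 1 log2 value per probe set and array. The submitters' processing notes name RMA without a version. All 9 arrays held the same sorted values, from 2.2511 to 14.799. No normalization was added. The table held 45101 probe sets, 64 of them controls. A single symbol was annotated for 34945 probe sets and several for 932, while 9160 were unlisted and stay unnamed here.

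Each of the 18193 genes was represented by its brightest probe set (mean of 9 arrays), dim genes included. The test of TAC against sham was limma's (version 3.58.1, R 4.3.3, lmFit and eBayes, two-sided, without covariates), with 7 residual and 3.27 prior degrees of freedom. Adjusted p-values are over all 18193 genes, or, for single probe sets, over 45037 probe sets. The fit was tested on simulated data. Replicates were numbered in sample order, and no batch is labelled. The members and lists were chosen with earlier results of these data known. All members were named, and of each pathway list up to 4 called genes with the smallest p. Exceptions are stated where they occur. The alternatives tried were averaged probe sets, probe sets below 13, genes above the median, a variance trend with robust fitting, array weights, median centring, cyclic loess, stricter thresholds and leaving out each array. Figures were drawn with matplotlib 3.10.9 in Python 3.11.15.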

Additional observations from a re-analysis of the deposited data

Results flagged for a closer look

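Among 82 groups of arrays checked, TAC and sham for each of the 12 probe sets and for each pathway gene named, 6 held 1 array whose gap to the nearest other exceeded Dixon's 95% critical value for its group, where chance flags about 1 in 20 groups. None of the 6 belongs to a BMP, activin or follistatin-like gene named at the start. Tgif1 was 5.74 in sham replicate 2, with the nearest sham array at 6.50. Skil was 11.14 in sham replicate 3, with the nearest at 11.27. Id1 was 9.12 in TAC replicate 3, with the nearest at 9.42, and 9.48 in sham replicate 3, with the nearest at 9.86. Cdkn1a was 10.18 in TAC replicate 4, with the nearest at 10.62. Smad1 was 12.04 in TAC replicate 3, with the nearest at 11.78.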

How the results depend on the processing

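Of 138 values of the 8 genes in the gene fit under alternatives, 126 kept their direction and their side of the threshold, 4 lost a call, 0 gained one and 8 turned sign. The sign changes were all in Bmp2 and Bmp10, whose differences were near 0. The call of Fstl1 held under every alternative run, and those of Fstl3 and Bmp4 under every one in which they were tested, since genes below the median gene were left out in 1. The count of higher genes among the 8 was 4 on leaving out any 1 array and 1 of 2 tested among genes above the median. The count of lower genes was 0 with averaged probe sets, among genes above the median and at an adjusted p below 0.01, and 0 to 1 on leaving out 1 array. Called in either direction were 45.3% of all genes above the median and 24.1% of all genes with averaged probe sets. The share was 14.3% at 0.01 and 18.6% to 27% on leaving out 1 array. Among the 12 probe sets the count of lower ones was 0 among those above the median and at 0.01. It was 0 to 1 on leaving out 1 array, with 5 higher on leaving out any 1 array. Over all probe sets 35.9% were called in either direction above the median, 9.17% at 0.01 and 11.9% to 18.4% on leaving out 1 array. For the 95 genes of the pathway lists 27 were higher and 15 lower with array weights. At an adjusted p below 0.01 they gave 7 higher and 4 lower, and 8 and 3 with at least 1.5-fold. Leaving out 1 array gave 10 to 20 higher and 7 to 11 lower. Over all 18193 genes 2896 were higher and 3045 lower with array weights, 1356 and 1252 at 0.01, and 981 and 642 with at least 1.5-fold. Leaving out 1 array gave 1770 to 2386 higher and 1605 to 2528 lower over all genes. Signs turned for Bmp2 with array weights (0.055, and 0.042 in the probe set fit), for Bmp10 with median centring (-0.049), for Smad6 with median centring (-0.018) and for Acvr2a with averaged probe sets (0.083). Leaving out 1 array gave -0.15 to 0.035 for Bmp2, -0.054 to 0.066 for Bmp10, -0.11 to 0.23 for Smad6 and -0.016 to 0.069 for the dimmer Inhba probe set. Centring on the median gave 1978 genes higher and 2907 lower over all genes, against 2333 and 2232 as reported, and moved the median difference to -0.05. The cause of these changes was not tested, apart from filters and thresholds that leave fewer genes. No paired analysis was possible because the labels give no replicate numbers that groups share. Dim probe sets, such as those of Bmp7 and Bmp10, limit what change could be seen.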
